A study of Homo sapiens with 10 samples.

Results

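In the GATA6 degron line of DLD-1 cells, 417 open regions were called that no list from GATA6 knockout or wild-type cells held, out of 120452 merged regions of the degron line (0.346%) and 62170 regions called by all 6 degron libraries (0.671%). They were chosen by calls alone: intervals of the 6 degron peak lists on chromosomes 1 to 22 and X were merged where they touched or overlapped, and a region was kept if every degron library overlapped it by at least 1 bp and no other library did. ATAC-seq, in which a transposase inserts adapters into open chromatin, was done on DLD-1, an established human colorectal adenocarcinoma line, in 10 libraries that form 5 groups of 2. The degron cells carry GATA6-AID-IAA7, a GATA6 gene fused to an auxin-inducible degron through which added auxin (IAA) has the protein degraded. They were taken at 0 h (AID_ctrl, titled as control although its treatment label reads +Auxin), after 12 h of auxin (AID_aux, with 500 µM IAA in the protocol) and after a wash (AID_wash, whose time label, 1, lacks a unit). GATA6-KO cells (KO), made with CRISPR/Cas9, and wild-type cells (WT) gave the other 4 libraries. The protocol speaks of positive degron clones and gives neither their number nor the origin of the replicates, whose spread may therefore be technical only.

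GATA6 is a zinc-finger transcription factor of endoderm and gut epithelium that binds the core GATA and keeps many intestinal enhancers accessible. An open region marks a stretch from which nucleosomes have been cleared, such as a promoter, an enhancer or an insulator, and distal regions differ more between cell types than promoters do. In an auxin degron, auxin bridges the tag and a ubiquitin ligase, and the tagged protein is then broken down by the proteasome.

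The form of the deposited lists bears on every value that follows. The degron lists hold intervals of varying width with a summit each, whereas the WT and KO lists hold windows of 500 bp that do not overlap one another, with no score. The line and the form of its list therefore cannot be told apart. The degron lists held 154537 to 199036 peaks and covered 56.7 to 70.2 Mb, against 116626 and 130807 windows (58.1 and 65.2 Mb) in KO and 66078 and 93104 windows (33.0 and 46.4 Mb) in WT. Read counts are not part of the files, which leaves the depth unknown, and an uncalled region need not be closed. Of the 62170 regions called by all 6 degron libraries, KO replicates 1 and 2 called 98.1% and 97.0%, and WT replicates 1 and 2 called 93.6% and 74.1%. Of 9 colon epithelium markers, 8 had a call within 1000 bp of a gene end in all 6 degron libraries (CDH1, EPCAM, KRT8, KRT18, KRT19, VIL1, CDX1 and CDX2) and CDH17 had none in any library. Of 10 markers of blood, fibroblast and endothelial cells, 5 were called by all 6 degron libraries and all 4 others, so a call near a gene end does not show that a gene is active.

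Few of the 417 regions touched a promoter. A promoter window of 250 bases before to 50 bases after a gene start, from the RefSeq table (GRCh38.p14), was touched by 9 of them (2.16%), against 17.5% of the 62170 regions. The 9 genes were 6 long non-coding RNA genes (LOC124904204, LOC107985841, SILC1, LINC02537, LOC105376204 and LINC01706) and 3 genes listed as protein-coding (DIXDC1, ABCC12 and F10-AS2). Printed here are SILC1, which lies in the densest cluster of these regions, LINC01706, whose region was the strongest of the 9, and DIXDC1 and ABCC12, the coding genes whose windows were covered over 297 and 300 bases. Each is written 5′ to 3′ on the strand of its gene, with matches to a set of 12 short motifs in capitals.
SILC1 (chr2:5932437-5932736, plus strand): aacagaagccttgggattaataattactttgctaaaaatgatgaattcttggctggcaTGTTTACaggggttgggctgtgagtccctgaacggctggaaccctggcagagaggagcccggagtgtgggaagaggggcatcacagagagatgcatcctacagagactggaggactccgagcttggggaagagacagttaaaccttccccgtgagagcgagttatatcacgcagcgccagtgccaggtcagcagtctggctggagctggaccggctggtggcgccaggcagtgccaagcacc
DIXDC1 (chr11:111977095-111977394, plus strand): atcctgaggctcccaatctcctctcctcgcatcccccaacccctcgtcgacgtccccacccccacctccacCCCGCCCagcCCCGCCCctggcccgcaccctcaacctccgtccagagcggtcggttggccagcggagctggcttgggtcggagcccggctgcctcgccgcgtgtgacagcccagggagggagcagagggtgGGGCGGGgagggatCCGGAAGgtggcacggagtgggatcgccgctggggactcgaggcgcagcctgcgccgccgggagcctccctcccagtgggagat
ABCC12 (chr16:48155944-48156243, minus strand): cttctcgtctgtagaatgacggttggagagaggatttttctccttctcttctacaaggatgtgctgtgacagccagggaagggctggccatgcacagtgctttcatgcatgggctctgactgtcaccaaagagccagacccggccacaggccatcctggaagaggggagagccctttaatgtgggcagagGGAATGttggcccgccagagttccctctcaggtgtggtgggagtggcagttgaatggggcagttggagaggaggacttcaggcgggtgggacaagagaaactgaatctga
LINC01706 (chr20:7347183-7347482, plus strand): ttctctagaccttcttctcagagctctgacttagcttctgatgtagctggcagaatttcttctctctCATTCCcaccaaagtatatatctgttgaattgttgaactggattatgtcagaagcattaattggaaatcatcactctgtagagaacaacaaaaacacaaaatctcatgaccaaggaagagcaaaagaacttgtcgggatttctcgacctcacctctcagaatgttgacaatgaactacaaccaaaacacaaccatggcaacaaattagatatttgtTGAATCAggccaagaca

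The capitals mark a forkhead match (TGTTTAC) at SILC1, 3 KLF/SP matches (GGGCGGG) and 1 ETS match (CCGGAAG) at DIXDC1, 1 TEAD match (GGAATG) at ABCC12, and 1 AP-1 match (TGANTCA) and 1 TEAD match at LINC01706, each searched on both strands. Of all 34961 promoter windows, 3.42% held the forkhead letters, 33.1% KLF/SP, 10.3% ETS, 14% TEAD and 7.68% AP-1, and of the 9 windows 1, 2, 1, 2 and 2 held them in that order. No match printed overlapped another. The GATA letters TGATAA or AGATAA stood in 1 of the 9 windows, that of LOC105376204, and in 16.3% of all windows. In windows touched by any region called by all 6 degron libraries, the shares were 7.75% for GATA, 2.71% for forkhead and 52.3% for KLF/SP. For ETS, TEAD and AP-1 they were 18.2%, 11.5% and 5.70%. The other motifs gave 1 window with an HNF4 match (CAAAGTC, 3.37% of all windows), 1 with a CDX match (TTTATGG, 2.54%), and 0 of 9 for HNF1 (GTTAAT, 6.89%), TCF/LEF (CTTTGAA, 4.42%), the E-box CAGCTG (18%) and CTCF (AGGGGGC, 14.4%). The median GC content was 54.0% in the 9 windows, against 65.7% in windows touched by any region called by all 6 degron libraries. Over all promoter windows it was 58.7%. DIXDC1 encodes a DIX-domain protein of the WNT pathway, ABCC12 a transporter of the ABC family, and SILC1 a non-coding RNA known in mouse neurons to promote its neighbour Sox11. The window of DIXDC1 was 73.0% GC, against 38.7% at LINC01706, so base composition varied widely among them.

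The regions were weak. Standing is used here for the percentile of a region among the 62170 regions called by all 6 degron libraries, by its highest −log10 p in a library, with 100 the strongest. Every library ranks the same regions, so the length of its list does not enter. The median standing of the 417 regions was 11.6 and 11.6 in AID_ctrl replicates 1 and 2, 9.83 and 10.5 in AID_aux and 13.9 and 11.8 in AID_wash. The 6 libraries were thus close to one another, and all had 310 to 351 of the 417 in the lowest 25% of regions. The median −log10 p, the authors' own value per peak, was 9.34 to 13.3 across the 6 libraries, against 24.0 to 38.4 over the 62170 regions, and the median fold enrichment was 4.94 to 5.41, against 7.99 to 9.10. Strength goes with the calls that chose the regions, so these values are a description and no test.

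**Figure D1:**
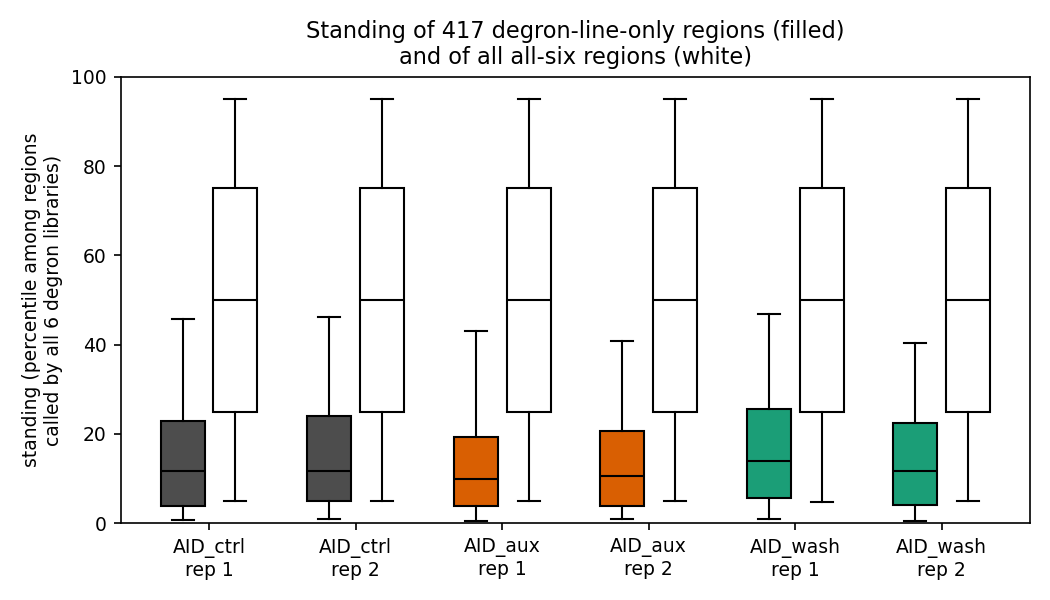
Standing (percentile among the 62170 regions called by all 6 degron libraries, y axis) in each degron library (x axis) of the 417 degron-line-only regions (filled boxes) and of all such regions (white boxes); boxes give the quartiles and the median, whiskers the 5th and 95th percentiles. The filled medians lie between 9.83 and 13.9 in all 6 libraries.

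Just outside lay 536 regions that were called by 5 of 6 degron libraries and by no WT or KO library, and in 233 of these the library without a call was AID_wash replicate 1, which has the shortest list, and in 124 AID_aux replicate 2. Another 714 were called by all 6 degron libraries and by 1 of the 4 others, which was WT replicate 1 for 336, KO replicate 1 for 308, KO replicate 2 for 53 and WT replicate 2 for 17. The median standing of these 714 was 12.3, against 11.2 for the 417 when each region is taken at its median over the 6 libraries, and 62.8 for the 45302 regions called in all 10 libraries. The number of regions depended on single lists: it was 753 without WT replicate 1, 725 without KO replicate 1 and 663 without AID_wash replicate 1. It was 69 when only degron peaks with a −log10 p of 10 or more counted.

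The 417 regions were mostly distal, and many were far from any coding gene. Their median width was 756 bp (quartiles 445 and 1064), against 1119 bp (807 and 1430) for all 62170 regions. A start or end of a protein-coding gene lay within 1000 bp of 21 of them (5.04%, exact Clopper-Pearson 95% interval 3.14 to 7.60), against 20.4% of the 62170, and 178 lay inside a coding gene body (42.7%, 37.9 to 47.6), against 54.0%. No protein-coding gene within 100000 bp was found for 130 (31.2%), against 10.0% of the 62170. The intervals cover counting error over regions, which are not replicates. With the peaks recast as fixed windows of 500 bp, 647 regions were chosen and 21.8% lay near a gene end, so this share depends on how regions are drawn. The 2961 regions called by all 6 degron libraries, both KO and neither WT library had a median width of 742 bp, a median standing of 12.0 and a share near a gene end of 6.89%. Of these, 13.7% had no coding gene within 100000 bp, and the share was 20.9% of the 714 regions with 1 WT or KO call and 19.2% of the 536 called by 5 of 6 degron libraries.

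The share without a coding gene nearby was larger among the stronger of the 417 regions. Of the 187 with a median standing up to 10, 26.7% had no coding gene within 100000 bp, against 12.8% of the other regions of that standing. The share was 31.6% of 158 between 10 and 25 (12.4% of the others), 38.1% of 63 between 25 and 50 (11.2%), and 66.7% of 9 above 50 (7.97%). The share went up with standing among the 417 and down among the other regions over these 4 bands, and the last band holds 9 regions only. The share near a gene end was 6.42%, 4.43%, 3.17% and 0.00% in the same bands, against 7.74%, 8.61%, 13.1% and 30.3% of the others. No test was made of these differences, because the rule used the calls that go with strength.

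Many regions lay close beside a WT or KO window and others in empty surroundings. The nearest WT or KO window was at a median distance of 4239 bp (quartiles 593 and 23040, largest 630485). It lay within 500 bp of 94 regions (22.5%) and beyond 50000 bp of 67 (16.1%). The 69 regions under 300 bp had a median distance of 538 bp, against 14509 bp for the 122 regions over 1000 bp. The lowest fold enrichment over the 6 libraries had a median of 2.95 in those 69 and of 4.81 in the wide ones, and 53.6% and 28.7% lay inside a coding gene. The part that the placing of the 500 bp windows has in the narrow regions was not tested. Of the 417 regions, 197 had no WT or KO window within 5000 bp, and 50.3% of those had no coding gene within 100000 bp. The same share was not taken for other regions as far from a window, so it is not known to be particular to these. The 5 widest lay inside TPST1 (2616 bp), a tyrosylprotein sulfotransferase gene, inside AASS (1753 bp), an enzyme of lysine breakdown, and on chromosomes 9, 6 and 8 (1926, 1750 and 1690 bp) with no coding gene nearby. That in TPST1 stood at 0.84 to 6.43 in the 6 libraries, so the widest region had a low standing throughout.

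**Figure D2:**
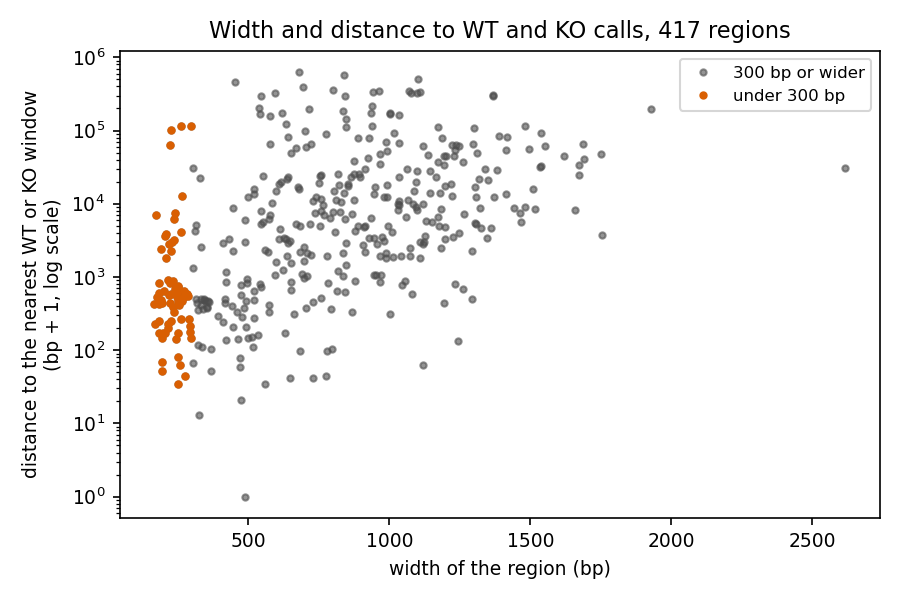
Width of each of the 417 regions (x axis, bp) against the distance to the nearest WT or KO window (y axis, bp plus 1, log scale), with the 69 regions under 300 bp in orange. The orange points have a median distance of 538 bp, and regions over 1000 bp one of 14509 bp.

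The 2 regions with the highest lowest standing were distal. On chromosome 19 a region of 1144 bp (28863913 to 28865056) with no coding gene within 100000 bp stood at 62.0 and 64.6 in AID_ctrl, 69.0 and 72.5 in AID_aux and 71.8 and 67.2 in AID_wash, with a fold enrichment of 11.1 to 13.5. It was in the upper 50% in every degron library. A region on chromosome 2 (6441300 to 6442536), also without a coding gene nearby, stood at 54.4 and 68.5 in AID_ctrl, 50.3 and 56.1 in AID_aux and 54.8 and 50.9 in AID_wash, and its nearest WT or KO window was 63794 bp away. These were the only 2 of the 417 above 50 in all 6 libraries.

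Inside ZFPM2 on chromosome 8 (105523345 to 105524539), a gene whose product FOG2 is a zinc-finger cofactor that binds GATA factors, the standing was 56.1 and 49.0 in AID_ctrl, 47.3 and 68.8 in AID_aux and 60.6 and 58.5 in AID_wash. The AID_aux values spanned those of both other groups, both AID_wash values lay above both AID_ctrl values, and a WT or KO window lay 444 bp from it. Inside OSGIN1 (chromosome 16, 83954538 to 83954797), an oxidative stress-induced growth inhibitor, a region of only 260 bp stood at 48.6 to 68.5, with a fold enrichment of 4.57 to 5.99 and a window 61 bp away. Inside MAP3K20, which encodes a stress-activated kinase, a region of 441 bp stood at 37.8 to 67.8, with a window at 398 bp.

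The other regions of the 15 with the highest lowest standing had a lowest standing of 26.4 to 40.3. Their midpoints lay 59846 bp from CCT8L2 (a chaperonin-like gene) on chromosome 22, inside GATA6, at 2 places inside ATP8A2 (a phospholipid flippase) on chromosome 13, and at 6 places on chromosomes 2, 7, 10, 13 and 14 with no coding gene within 100000 bp. The regions on chromosome 14 (82321393 to 82322489 and 87133226 to 87134025) and that on chromosome 13 (83498096 to 83499059) had their nearest WT or KO window 330641, 357682 and 343506 bp away.

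**Figure D3:**
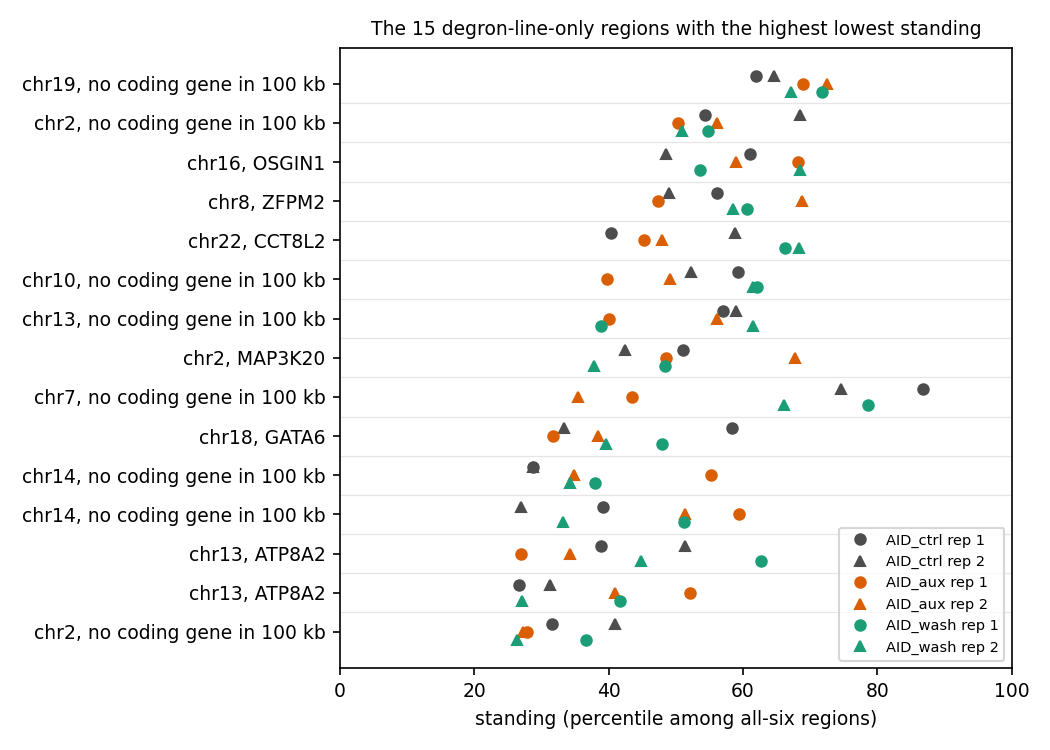
Standing (x axis, percentile) in each degron library of the 15 degron-line-only regions with the highest lowest standing, named by chromosome and nearest coding gene; circles are replicate 1 and triangles replicate 2. The region on chromosome 19 stood at 62.0 or more in every library, and the one on chromosome 7 lay at 43.5 and 35.5 in AID_aux, against 86.8 and 74.6 in AID_ctrl.

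GATA6 itself had 2 of its 13 regions called by all 6 degron libraries among the 417. The stronger one (chromosome 18, 22200224 to 22201449, 1226 bp) lay inside the gene, which runs from 22169589 to 22202528 on the plus strand, and ended 1079 bp before its 3′ end. Its standing was 58.3 and 33.3 in AID_ctrl, 31.7 and 38.4 in AID_aux and 48.0 and 39.6 in AID_wash. The AID_aux and AID_ctrl values overlapped, and the region was called in every degron library. The nearest WT or KO window was 3483 bp away. The labels do not say where in the gene the degron was inserted, so its place relative to this region is not known here. The other (22167114 to 22167418, 305 bp) lay 2171 bp before the gene start, with a standing of 8.48 and 7.83 in AID_ctrl, 17.1 and 2.34 in AID_aux and 12.5 and 2.49 in AID_wash, and a WT or KO window at 65 bp. At PPP1R12C, the site known as AAVS1 into which transgenes are often placed, 0 of 1 region was among the 417.

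The densest cluster lay around SOX11, which encodes a transcription factor of embryonic neural cells. In the 1 Mb from 5000001 to 6000000 of chromosome 2, all 8 regions called by all 6 degron libraries were among the 417. KO replicates 1 and 2 had 2 and 0 windows in that stretch, and WT replicates 1 and 2 had 0 and 6, none of them on one of the 8 regions. From the start to the end of the stretch the regions began at 5021187, 5250028, 5520231, 5560864, 5781744, 5855225, 5914734 and 5932427, and were 705 to 1621 bp wide. SOX11 (5692384 to 5701385) lay between the fourth and the fifth and the nearest of the 8 was 80359 bp from it. The one with the highest lowest standing (5914734 to 5916354) stood at 31.5 and 41.0 in AID_ctrl, 27.9 and 27.2 in AID_aux and 36.6 and 26.4 in AID_wash. The last, over the start of SILC1, stood at 13.5 and 6.10 in AID_ctrl, 17.3 and 26.3 in AID_aux and 11.6 and 15.8 in AID_wash. For SILC1 both AID_aux values were above both AID_ctrl values, and for the region at 5914734 both were below. The region at 5855225, with the highest median standing of the 8 (30.9), stood at 30.2 and 17.4 in AID_ctrl, 26.1 and 31.6 in AID_aux and 52.6 and 34.3 in AID_wash, and its AID_aux and AID_ctrl values overlapped. Within 500000 bp of the SOX11 start 7 of 8 regions were members, within 1 Mb 9 of 14 and within 2 Mb 12 of 41. The KO libraries had 81 and 63 windows and the WT libraries 38 and 31 within those 2 Mb, most of them outside the cluster.

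**Figure D4:**
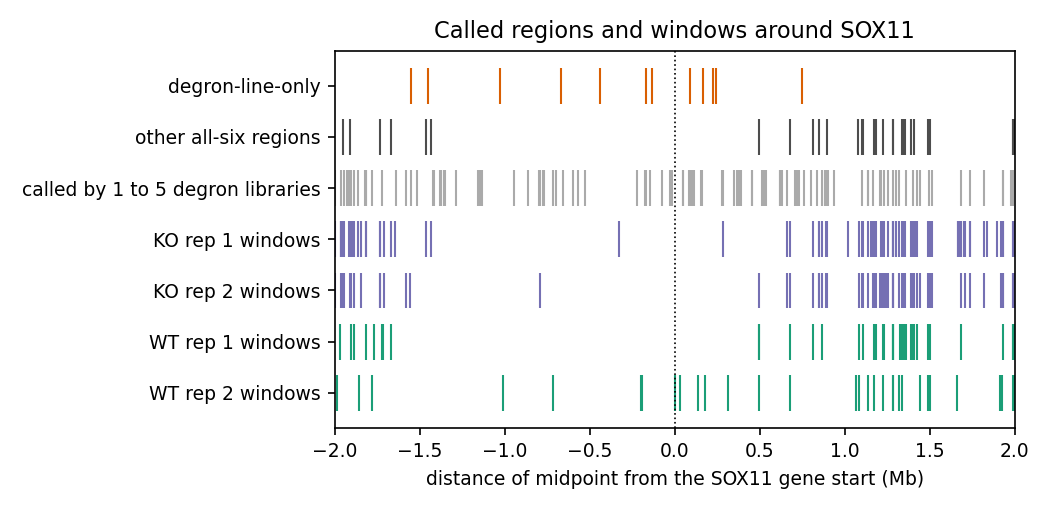
Midpoints of called regions and windows by distance from the SOX11 gene start (x axis, Mb; 0 is the dotted line); rows are degron-line-only regions, other regions called by all 6 degron libraries, regions called by 1 to 5 of them, and the windows of each KO and WT library. Within 500000 bp of the start 7 of 8 regions called by all 6 degron libraries are degron-line-only.

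Other clusters were smaller. On chromosome 19 between 28000001 and 29000000, 6 of 10 regions were members, among them the one with the highest lowest standing. KO had 8 and 2 windows there and WT 0 and 4. On chromosome 14 between 82000001 and 83000000, 4 of 4 regions were members, with 2 and 0 windows in KO and 0 and 0 in WT. On chromosome 8 between 65000001 and 66000000, 4 of 14 were members, in surroundings with 20 to 31 windows in each WT and KO library, and near the end of chromosome 1 (1000001 to 2000000) 5 of 83 were members. Most members stood alone: 283 of the 417 were the only one in their 1 Mb window, and 63 (15.1%) had another within 100000 bp. By chromosome the share of regions that were members was highest on chromosome 14 (26 of 2001, 1.30%, exact interval 0.850 to 1.90) and 18 (15 of 1315, 1.14%). It was lowest on chromosome 17 (7 of 3121, 0.224%) and on chromosome 21 (0 of 803, with an exact upper limit of 0.458%, and 0.374% by the rule of 3 counts of the total).

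By nearest coding gene within 100000 bp the regions were spread over 269 genes, of which 255 had 1 region, 10 had 2 and 4 had 3. Among those with 3 were TSHZ3, a zinc-finger homeobox factor (3 of its 13 regions called by all 6 degron libraries), ATP8A2 (3 of 16) and TP53TG3 (3 of 4). TP53TG3 has near-identical copies on chromosome 16, so reads there may be split between copies and its values are uncertain. At CNTN4, a neural adhesion molecule, and at AQP4, a water channel, 2 of 2 regions were members, as were 2 of 3 at SOX5, a transcription factor, and 2 of 3 at GNAZ, a G protein subunit. The regions in CNTN4 were 1171 and 1302 bp wide, and their nearest WT or KO windows lay 109999 and 108260 bp away. The first of them ended at 2897507 of chromosome 3 and the second began at 2897945. The 2 are thus adjacent and not spread over the gene, which is 959094 bp long. AFF2 had 2 of 10, and HPSE2 (a heparanase homologue), INPP4B (an inositol polyphosphate phosphatase) and MIDEAS (a partner of histone deacetylases) 2 of 11 each.

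Each gene list held 0 to 3 members, and at the 0.671% of all regions each would hold 0.09 to 1.40. Such small counts show neither a lack nor an excess. Gut factors had 2 of 139 regions (1.44%, both at GATA6). Epithelial junction genes had 2 of 148 (1.35%), at KRT8, a keratin of simple epithelia, and PKP2, a desmosome gene. BMP and TGF-beta genes had 1 of 209 (0.478%), at SMAD6, an inhibitory SMAD. Neural adhesion and channel genes had 3 of 165 (1.82%), 2 in CNTNAP2, a neurexin-like protein, and 1 in NRG1, a growth factor. NF-kB and interferon genes had 1 of 47 (2.13%), at ISG15, an interferon-induced ubiquitin-like protein. In the list made for the ubiquitin ligase that the degron uses, 1 of 13 regions (7.69%) was a member. It lay at COPS5, a subunit of the COP9 signalosome and not of the ligase itself. There were 0 of 121 for Hippo and YAP genes, 0 of 158 for WNT genes, 0 of 112 for EMT and matrix genes, 0 of 49 for AP-1 genes and 0 of 40 for aryl hydrocarbon receptor genes. Blood markers had 0 of 14 and fibroblast and endothelial markers 0 of 30. By the same rule of 3 counts, a count of 0 allows up to 1.90% for WNT genes and 2.48% for Hippo and YAP genes, both above 0.671%, so these counts do not show a lack. The highest standing over the 6 libraries was 58.3 and 17.1 for the 2 regions at GATA6 and 32.6 and 27.6 for those in CNTNAP2. It was 23.9 at NRG1, 22.9 at PKP2, 16.6 at SMAD6, 14.3 at COPS5, 13.0 at KRT8 and 8.34 at ISG15, so apart from 1 region at GATA6 none reached the upper 50%.

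Regions near ends of coding genes had a low standing in at least 1 library. The one with the highest lowest standing had its midpoint 929 bp from KLHL4, a kelch-like gene, on the X chromosome and stood at 13.6 to 49.7 over the 6 libraries. One beside SEMA6A, an axon guidance semaphorin, stood at 13.1 to 49.9. Those at BPNT1 (a nucleotidase), CENATAC (a factor of the minor spliceosome), L1CAM (a neural adhesion molecule), FOXD1 (a forkhead factor), CLCN4 (a chloride transporter) and ZNRD2 had a lowest standing of 2.72 to 10.8. Of these 6, 5 were 221 to 293 bp wide, and that at L1CAM was 1094 bp. The nearest WT or KO window lay 43 bp away at ZNRD2, 175 at CLCN4, 273 at KLHL4, 467 at FOXD1 and 610 at BPNT1. At CENATAC, L1CAM and SEMA6A it lay 2797, 9012 and 9782 bp away.

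With auxin, some of the regions stood lower and others higher. The comparison asks how regions called in this line alone stand after 12 h of auxin. The rule touches it, since every region had to be called in all 6 degron libraries and in no WT or KO library. KO cells lack GATA6, so the choice of regions was not independent of a loss of GATA6. Both AID_aux libraries stood below both AID_ctrl libraries at 106 of the 417 regions (25.4%), against 19.4% of the 62170, and above both at 73 (17.5%), against 21.1%. In the remaining regions the groups overlapped. Leaving out any 1 of these 4 libraries gave 160 to 175 below (38.4 to 42.0%, against 33.1 to 34.3% of the 62170) and 129 to 137 above (30.9 to 32.9%, against 35.8 to 36.8%), since fewer libraries then have to be parted. The median difference, AID_aux minus AID_ctrl, was −1.45 points for the 417 and 0.42 for the 62170. For the 417, replicate 1 minus replicate 2 had a median of −0.76 in AID_ctrl, −0.67 in AID_aux and 2.57 in AID_wash. The value between the AID_wash replicates was thus larger in size than that between AID_aux and AID_ctrl. The difference between replicates of one group had a median size of 6.75 to 7.64 points, and that between libraries of different groups 6.38 to 8.18, so the sizes of the 2 kinds of difference overlapped. Because the regions were chosen with results of these data known, no p was given.

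With a gap of at least 20 points between the groups, 13 regions (3.12%, against 2.10% of the 62170) stood lower in AID_aux and 7 (1.68%, against 0.780%) higher. Both shares were above those of the 62170, whose standing is higher and was not matched to that of the 417. Of the 13 lower ones, 0 lay near a gene end (5.04% of the 417) and 7 had no coding gene within 100000 bp (31.2%). Of the same 13, 8 were over 1000 bp wide, as were 122 of the 417. Such a gap needs a standing above 20 in both AID_ctrl libraries, and the stronger of the 417 were more often far from coding genes. These counts are therefore a description only. Inside SHANK2, a synaptic scaffold gene (chromosome 11, 71112687 to 71113883), the standing was 6.75 and 0.37 in AID_aux, against 47.0 and 47.3 in AID_ctrl. AID_wash gave 35.6 and 50, and the groups AID_aux and AID_ctrl did not overlap. Inside ALK, a receptor tyrosine kinase gene (chromosome 2, 29375155 to 29376813), it was 0.12 and 10.6 in AID_aux, against 68.2 and 47.7 in AID_ctrl, with 45.9 and 39.3 in AID_wash. On chromosome 6 (117073998 to 117075015, no coding gene nearby) it was 7.18 and 18 in AID_aux, against 70.5 and 54.7 in AID_ctrl, with 67.4 and 56.9 in AID_wash. The strongest of the 13, on chromosome 7 (125878395 to 125879806), had a −log10 p of 33.0 and 19.2 in AID_aux, against 75.8 and 51.6 in AID_ctrl, with 50.1 and 49.0 in AID_wash. Its nearest WT or KO window was 54686 bp away. The others lay inside PIK3CB, a PI3-kinase subunit, and LOC112268384, at 68991 bp from CDH20, a cadherin, and 23368 bp from SRP54, and at 5 places without a coding gene nearby. Over the 13 regions the mean of the 2 libraries had a median of 9.33 in AID_aux, against 47.1 in AID_ctrl, with 42.8 in AID_wash. The AID_aux and AID_ctrl values chose these regions, so their difference is no result. A comparison of AID_wash with either of them uses the same chosen values.

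The 7 higher ones, chosen by the same values, stood at 24.4 to 54.0 in AID_aux, against 1.65 to 19.8 in AID_ctrl. Beside SEMA6A (chromosome 5, 116441828 to 116442859) the standing was 49.9 and 47.9 in AID_aux, against 13.1 and 19.8 in AID_ctrl, with 27.2 and 32.0 in AID_wash. At ABCC12, over the promoter printed earlier, it was 27.5 and 24.5 in AID_aux, against 2.84 and 3.74 in AID_ctrl, with 0.44 and 5.46 in AID_wash. Both AID_aux values lay above the other 4 at each of these genes. The others lay inside TUSC3 (a subunit of oligosaccharyltransferase), AFF2 and MYT1 (a neural zinc-finger factor), and at 2 places on chromosomes 8 and 22 without a coding gene nearby. The nearest WT or KO window was only 172 bp from the region at ABCC12 and 494 bp from that in MYT1. At SEMA6A, TUSC3 and AFF2 it was 9782, 340628 and 141851 bp away.

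**Figure D5:**
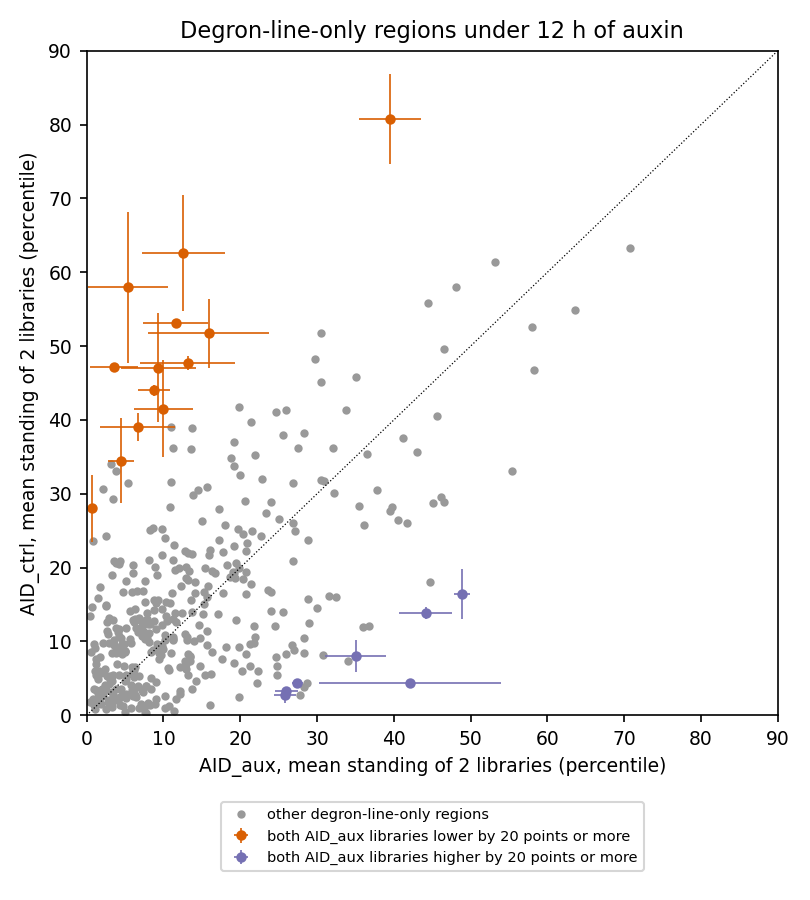
Mean standing of the 2 AID_aux libraries (x axis, percentile) against that of the 2 AID_ctrl libraries (y axis) for the 417 regions; bars on the coloured points span the 2 replicates. The 13 orange regions stood lower in both AID_aux libraries by at least 20 points and the 7 violet ones higher.

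For the wash the comparisons share libraries with the one before. Both AID_wash libraries stood above both AID_aux libraries at 111 regions (26.6%, against 18.8% of the 62170) and below at 67 (16.1%, against 19.9%). With a gap of 20 points the counts were 11 above (2.64%, against 1.72%) and 0 below (against 0.537%). Against AID_ctrl, both AID_wash libraries stood above at 81 regions (19.4%, against 17.1%) and below at 70 (16.8%, against 17.0%). With a gap of 20 points there was 1 above (0.240%, against 0.278%) and 2 below (0.480%, against 0.298%), near the share over all regions. The 2 lay on chromosome 16 (65510690 to 65511659), with 15.1 and 9.79 in AID_wash, against 43.9 and 38.9 in AID_ctrl, and on chromosome 2 (22360580 to 22361582). Leaving out any 1 library gave 153 to 193 above AID_aux (36.7 to 46.3%, against 32.9 to 35%) and 116 to 137 below (27.8 to 32.9%, against 34.8 to 36.2%). Against AID_ctrl it gave 134 to 176 above (32.1 to 42.2%, against 33.0 to 34.6%) and 113 to 161 below (27.1 to 38.6%, against 33.2 to 33.8%), on both sides of the share over all regions. On chromosome 8 (101078832 to 101079625) the standing was 59.8 and 50 in AID_wash, against 6.75 and 10.8 in AID_aux, with 44.7 and 43.3 in AID_ctrl. At 62245 bp from IGF1R, the receptor of insulin-like growth factor, it was 43.2 and 40.5 in AID_wash, against 5.46 and 0.99 in AID_aux, and AID_ctrl had 43.2 and 24.9. At 23368 bp from SRP54, a subunit of the signal recognition particle, it was 47.4 and 59.6 in AID_wash, against 13.8 and 6.15 in AID_aux, with 35 and 48.1 in AID_ctrl. The largest gap of AID_wash above AID_ctrl was on chromosome 8 (65275172 to 65275824), where the standing was 37.4 and 40.4 in AID_wash, against 13.0 and 14.7 in AID_ctrl, with 47.6 and 40.7 in AID_aux.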

How the data were processed

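ATAC-seq peak lists of 10 libraries, 2 in each of 5 groups set by the sample titles, were analysed. Per the submitters' processing notes, the tools were MACS2 2.1.1, Bowtie2 2.4.2, Trim Galore 0.6.10 and Picard, and the build was hg38. Their parameters and any transposase offset or region filter were not given in the sources used here. Each deposited degron list gives per peak a score (10 times the −log10 p, held at 1000), a fold enrichment ratio, and its p-value and q-value as −log10, the smallest −log10 p being 5.00. For WT and KO the deposited files give positions and nothing else. These are the authors' own values and were used only to rank peaks within a list. Positions are counted from 1.

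Merging, calls (1 bp overlap), standing, distances to RefSeq genes (GRCh38.p14, 19974 protein-coding) and motif matches were computed with Python 3.11.15, numpy 2.4.6, pandas 2.3.3 and scipy 1.17.1, and the call code was tested on simulated data. Named regions are the 15 with the highest lowest standing, the 8 such near gene ends, the 12 genes with most regions (1 is not reported here), the 5 widest, the 5 densest 1 Mb windows and those with the largest auxin or wash gaps; the region near SILC1 and the other promoters, and the 7 with steady edges, were named after their values were seen. The members, the 13 gene lists and the 12 motifs were chosen with earlier results of these data known. Motifs could be searched in promoter windows only, since no genome was used here.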

Additional observations from a re-analysis of the deposited data

How the results depend on the processing

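Depth is unknown, so weak regions cannot be separated from missed calls, and cell line and list format cannot be told apart. Over all settings, 72 of 146 values kept within the limits used and 74 moved. Counting a WT or KO window nearer than 500 bp as a call left 324 regions (1 of the 94 regions with a window within 500 bp lay at exactly 500 bp), with 2.78% near a gene end, 37.3% in a gene body, a median width of 866 bp and 37.0% without a coding gene within 100000 bp. Nearer than 5000 bp this became 197 regions, 2.03%, 31.0%, 964 bp and 50.3%. Asking for 50% of the region to be covered gave 24207 regions, 33.4% near a gene end, 58.0% in a body, 1358 bp, 64.8% in the upper 50% of standing (2.16% as reported) and 8.63% without a coding gene; a single window of 500 bp cannot cover that much of a region over 1000 bp. A −log10 p of 10 or more left 69 regions, 2.90% near a gene end, 966 bp and 40.6% without a coding gene, with 16 below and 10 above for AID_aux against AID_ctrl (23.2% and 14.5%, beside 19.4% and 20.8% of all regions so called), 7 and 18 for AID_wash against AID_aux (10.1% and 26.1%, beside 19.8% and 18.7%), and 10 and 12 for AID_wash against AID_ctrl (14.5% and 17.4%, beside 17.0% and 17.0%). With all 417 regions and a gap of 20 points, the same pairs were 13 and 7, 0 and 11, and 2 and 1. In percent these were 3.12 and 1.68, 0.00 and 2.64, and 0.480 and 0.240. Over the 62170 regions they were 2.10 and 0.780, 0.537 and 1.72, and 0.298 and 0.278. Degron lists cut to equal length gave 246 regions. Fixed windows of 500 bp gave 647, 21.8% near a gene end, a width of 500 bp by construction, 28.7% in the upper 50% and 22.3% without a coding gene. Ranking by fold put 6.71% in the upper 50%, and a limit of 3000 bp put 11.3% near a gene end. Except where construction is named, the cause was not tested. Leaving out 1 library gave 434 to 753 regions, 5.19 to 6.90% near a gene end, 41.9 to 45.4% in a body, widths of 669 to 819 bp, 1.79 to 3.98% in the upper 50% and 25.2 to 31.1% without a coding gene. The counts became 160 to 175 below and 129 to 137 above for AID_aux against AID_ctrl (all regions 33.1 to 34.3% and 35.8 to 36.8%), 116 to 137 and 153 to 193 for AID_wash against AID_aux (34.8 to 36.2% and 32.9 to 35%), and 113 to 161 and 134 to 176 for AID_wash against AID_ctrl (33.2 to 33.8% and 33.0 to 34.6%). The shares without a coding gene were chosen after seeing the data. The motif share within the regions and its alternatives were not run, since no genome was used here. No paired analysis was possible because no result comes from a test.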

Other observations

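Among the 417 regions, 7 (1.68%) had outer edges that moved by 20 bp or less over the 6 degron libraries, against 0.497% of the 62170 regions called by all 6. They were 167 to 260 bp wide with a median of 183 bp, and lay inside BCL6, a transcriptional repressor, SYNJ2, a phosphoinositide phosphatase, LIMA1, an actin-binding protein, OSGIN1 and GSE1, and 24502 and 13310 bp from CRACDL and TNFAIP8. Each of the 7 had a WT or KO window within 538 bp. All were under 300 bp wide, as were 16.5% of the 417 regions and 2.08% of the 62170. The shares with such edges were not matched for width. The one in OSGIN1 stood at 48.6 to 68.5, and that in LIMA1 at 0.85 to 9.37.

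Of the 130 regions without a coding gene within 100000 bp, 24 (18.5%) had their midpoint in a long non-coding RNA gene of the RefSeq table, against 33.4% of all such regions called by all 6 degron libraries.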
